A study of Mus musculus with 12 samples.

Results

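The comparison is between splenic dendritic cells (DCs) of alymphoplasia (aly) mice and of their wild-type (WT) littermates after both had been activated in the animal. Its members are the 6 arrays titled as LPS plus anti-CD40, 3 from aly and 3 from WT, out of 12 arrays in the series, and they were taken by title alone. The series design describes the WT mice as heterozygous littermates of the aly mice, which by that description carry 1 aly allele. It does not say whether littermates without the allele were among them. All 6 treated arrays come from mice injected into the peritoneum with LPS (25 micrograms) and the CD40 agonist antibody FGK4.5 (100 micrograms), whose DCs were taken 6 hours later. The other 6 arrays, 3 of each genotype, come from mice that were not treated. Each array holds RNA of DCs from 3 pooled mice, enriched on CD11c beads and sorted by flow cytometry, so the spread between arrays is that of pools and not of single animals. The labels give no age, sex or strain for the mice, and the mutation is present in all cells of the animal, not in DCs alone.

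The aly mutation lies in Map3k14, which encodes the kinase NIK. NIK is activated below CD40 and other receptors of the TNF receptor superfamily, and it drives processing of the precursor p100 (Nfkb2) to p52, which acts with RelB. LPS acts through TLR4 on the canonical NF-kB subunits and on interferon regulatory factors, and in splenic DCs the combination with a CD40 agonist brings on maturation: higher costimulatory ligands, cytokines and CCR7, and lower antigen uptake. The comparison asks which part of that mature state is reached without intact NIK. Aly mice also lack lymph nodes and have a disordered spleen.

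The values are array intensities, and 15019 genes were tested. Differences are treated aly minus treated WT on the log2(intensity + 16) scale, with the standard error of the fit after ± (n = 3 arrays per group), and genes with a limma p under 0.05 after Benjamini-Hochberg adjustment were called. The offset of 16 understates changes of dim genes. Values on arrays are listed in the order of replicates 1, 2 and 3. Treated aly replicate 1 stands apart from the rest. Its Actb 3' over 5' signal ratio was 55.82, against 1.386 to 5.921 on the other 11 arrays, its hybridisation controls averaged 24400 against 1933 to 3739, and its median intensity was 53.4 against 21.5 to 39.1. Summed neutrophil markers were 15890 on it, against 281.4 to 3529 elsewhere. The Actb ratio was also higher on the other treated aly arrays (3.595 and 2.391) than on the treated WT arrays (1.456, 1.386 and 1.44). The Gapdh 3' over 5' ratio was 45.73, 20.68 and 8.457 on treated aly and 8.732, 4.842 and 5.432 on treated WT arrays. In untreated aly it was 14.12, 10.45 and 7.096. Treated aly replicate 2 thus had the highest Gapdh ratio after replicate 1, and it stays in the fit without replicate 1. The part of both ratios in the differences was not tested. Values are given with all arrays. Those without treated aly replicate 1 stand beside them for most main results and wherever leaving it out changed the call of a named gene or moved its difference by over 1.5-fold. Of the 90 named genes called with all arrays, 87 were also called without it, and C1qb, Ifi30 and Rhag were not.

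With all arrays, 807 genes (5.37% of those tested) were called between treated aly and treated WT DCs, 411 higher in aly (2.74%) and 396 lower (2.64%). Without treated aly replicate 1 the count was 1068 (7.11%), with 620 higher (4.13%) and 448 lower (2.98%). These shares are the background for the counts of called genes given for each list below. Of the 396 genes lower with all arrays, 327 were also lower without that array (82.6% of the first list, 73% of the second), and 323 of the 411 higher genes stayed higher (78.6% and 52.1%). The median difference of all genes was 0.188 with all arrays and 0.119 without. The number of calls rested on single arrays: it was 499 without treated WT replicate 1, 81 without treated WT replicate 3, 303 without treated aly replicate 2 and 1544 without treated aly replicate 3. With treated aly replicate 1 already left out, it was 301 without treated WT replicate 3, 38 without treated aly replicate 2 and 604 without treated aly replicate 3. The 38 and 604 rest on 1 treated aly array each, which is assumed to vary as the arrays of the other groups do. A fit of the 6 treated arrays alone called 27 genes, and 686 without treated aly replicate 1. Higher genes made up 50.9% of the calls as deposited, but 16.6% after centring each array on its median (58.1% and 44.1% without treated aly replicate 1).  Among the 130 genes named here, 13 were called with all arrays and under every alternative setting, and each of these was lower in aly: Ccrl2, Cd274, Cd80, Cxcl11, Fas, Gbp2, Gpr183, Il15, Irf4, Mx1, Prnp, Stat4 and Vsig10.

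**Figure D1:**
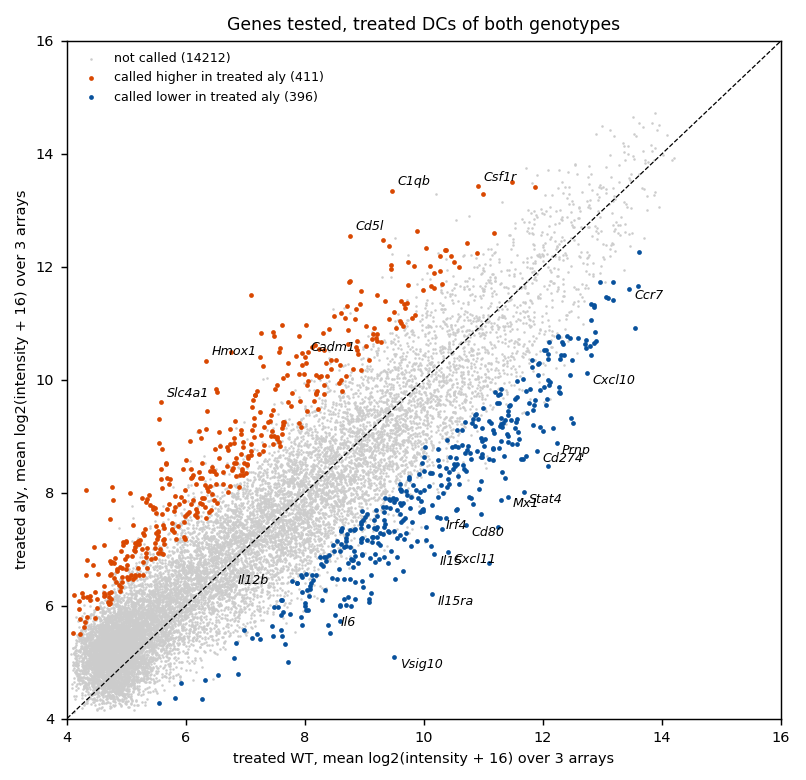
Mean log2(intensity + 16) of each of the 15019 genes over the 3 treated WT arrays (horizontal) and the 3 treated aly arrays (vertical). Orange points are the 411 genes called higher and blue points the 396 called lower in treated aly, grey points were not called, and the dashed line marks equal levels. Il15ra, Vsig10, Cd80 and Cxcl11 lie far below the line, and C1qb, Cd5l and Hmox1 far above it.

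The list of the IL-15 and IL-2 system had the lowest median of all 39 lists. These lists were chosen with earlier results of these data known and share genes, so their ranking may partly reflect that choice. DCs display IL-15 bound to the IL-15 receptor alpha chain to natural killer cells and memory CD8 T cells. Il15, the cytokine, read 1144.9, 1074.5 and 1178 on the treated WT arrays and 77.8, 111.3 and 131.1 on the treated aly arrays. The untreated levels were 152, 74.9 and 92.8 in WT and 137.6, 110.5 and 166.3 in aly, so the treated aly arrays lay in the untreated range and far below treated WT. The difference was -3.25 ± 0.35 (adjusted p = 4e-04), or 9.51-fold, and -3.07 ± 0.35 (adjusted p = 0.00024) without treated aly replicate 1. Il15ra, the chain that presents it, read 1080.8, 998 and 1269.5 in treated WT and 9, 72.6 and 163.7 in treated aly, against 32.7, 24.2 and 43.4 and 31.2, 29.7 and 46.2 before treatment. Replicate 1 was the lowest treated aly array, and the other treated aly arrays still lay well under every treated WT array. Its difference was -3.94 ± 0.53 (adjusted p = 0.0014), and -3.16 ± 0.37 (adjusted p = 0.00026) without replicate 1. Il2ra, the high-affinity IL-2 receptor chain CD25, was dim on the untreated arrays (1.3, 1 and 8.7 in WT, 19.7, 0.9 and 23.2 in aly) and reached 1018.8, 1079.7 and 1498.2 in treated WT against 235.3, 153.7 and 144.2 in treated aly. It thus appeared in both genotypes, at a level 6.31-fold lower in aly, with a difference of -2.66 ± 0.39 (adjusted p = 0.0025) and, without replicate 1, of -2.86 ± 0.39 (adjusted p = 8e-04). Stat5a, the transcription factor that conveys IL-2 and GM-CSF signals, read 977.8, 887.5 and 3226.1 in treated WT and 371.8, 248.8 and 370.8 in treated aly (-2.07 ± 0.44, adjusted p = 0.015). The groups did not overlap, but the Stat5a call was lost without treated WT replicate 3 or treated aly replicate 2 (adjusted p up to 0.1 over the single-array omissions), and Stat5a lies on the chromosome of Map3k14 among its nearest measured genes. Of the 7 measured genes of the IL-15 and IL-2 list, 4 were called lower and 0 higher, with a median of -2.07 (-2.16 without replicate 1).

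**Figure D2:**
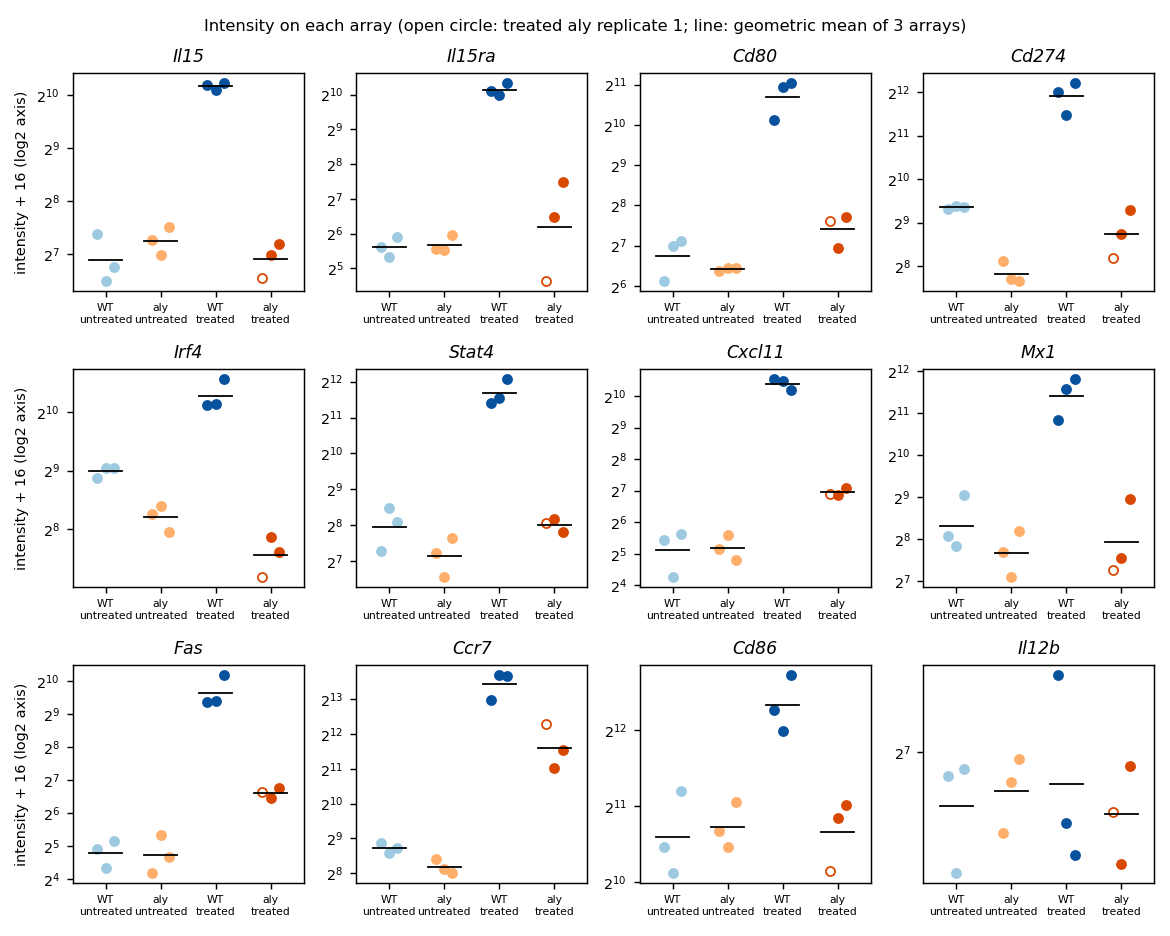
Intensity + 16 on each array (log2 axis) of 12 genes in the 4 groups of 3 arrays. The open circle is treated aly replicate 1 and the line the geometric mean of 3 arrays. Il15, Irf4 and Stat4 of treated aly lie near or below their untreated levels, Ccr7 rises in both genotypes, and Il12b shows overlapping groups.

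Among 10 measured genes of the NIK complex and non-canonical NF-kB, 1 was called lower in treated aly with all arrays and 3 without replicate 1, where 2.64% and 2.98% of all genes were. None was higher, and the medians were -0.93 and -0.96. At an unadjusted limma p under 0.05, 6 of the 10 were lower with all arrays, against 9.87% of all genes. Map3k14, encoding NIK, read 461.9, 554.8 and 540.9 in treated WT and 81.8, 260.6 and 546.3 in treated aly, with a spread over the aly arrays that reached the WT level. It was not called, with -1.11 ± 0.5 (adjusted p = 0.2) and, without replicate 1, -0.44 ± 0.39 (adjusted p = 0.57). The aly allele is a missense change, so the transcript level does not check the genotype. Nfkb2, encoding p100, read 3272.7, 1734.8 and 2916.2 in WT and 2239.6, 1017.2 and 776.2 in aly. The groups overlapped with all arrays and separated without replicate 1, and the gene passed in neither fit (-1.06 ± 0.48, adjusted p = 0.2, then -1.5 ± 0.45, adjusted p = 0.054). Relb, the partner of p52, read 4838.9, 4235.6 and 6860.8 in treated WT against 1084.6, 1116.6 and 2082.8 in treated aly, against 1203.8, 709.5 and 369.4 in untreated aly. All treated aly arrays lay below all treated WT arrays, and the difference was -1.92 ± 0.44 (adjusted p = 0.021) with all arrays and -1.76 ± 0.45 (adjusted p = 0.027) without replicate 1. The call was lost without treated WT replicate 3 or treated aly replicate 2, where adjusted p reached 0.13. Relb was the 1 call with all arrays. Birc3, an inhibitor of apoptosis that is part of the complex degrading NIK, was among the 3 without replicate 1 (-1.25 ± 0.4, adjusted p = 0.08 with all arrays, -1.5 ± 0.4, adjusted p = 0.032 without).

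Among canonical subunits and inhibitors, the calls were of the same direction. Rel, encoding c-Rel, read 1002.4, 806.9 and 1247.6 in treated WT and 255.4, 174.8 and 340.4 in treated aly, with no overlap and a difference of -1.95 ± 0.34 (adjusted p = 0.0058). Tnfaip3, encoding the deubiquitinase A20, read 5759.3, 4308.3 and 5416.5 against 1579.9, 1310.1 and 1843.3, a difference of -1.7 ± 0.35 (adjusted p = 0.013). Both kept their calls without treated aly replicate 1 (-1.97 ± 0.35, adjusted p = 0.0041, and -1.71 ± 0.35, adjusted p = 0.0093) and lost them without treated WT replicate 3, and Tnfaip3 also without treated aly replicate 2 (adjusted p up to 0.06 and 0.089). These were the 2 genes called of 16 in the list, both lower, and 11 of the 16 had every treated aly array below every treated WT array, a pattern found in 10.1% of all genes.

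Several ligands that DCs offer to T cells were lower in treated aly. Cd80, the B7 ligand of CD28 and CTLA-4, read 1099.4, 1947.7 and 2085.7 in treated WT and 178.9, 107.4 and 193.5 in treated aly, where untreated arrays read 53.8, 110.6 and 121.5 in WT and 67.2, 70.8 and 71.2 in aly. The treated aly level was thus 9.7-fold below that of treated WT (-3.28 ± 0.39, adjusted p = 0.00051 on the log2 scale, and -3.37 ± 0.4, adjusted p = 0.00029 without replicate 1). The other probe sets of Cd80 differed less (-1.41 and -0.54). Cd86, the second B7 ligand, read 4882, 4041.6 and 6725.2 in treated WT and 1115.7, 1813.4 and 2044.5 in treated aly, which is the range of untreated cells (1389.9, 1100.1 and 2321.3 in WT and 1610.7, 1396.7 and 2109.7 in aly). Its difference was -1.66 ± 0.39 (adjusted p = 0.024), a call lost without treated WT replicate 1, treated WT replicate 3 or treated aly replicate 2 (adjusted p up to 0.15). Cd274, the inhibitory ligand PD-L1, read 4100.5, 2842.4 and 4699.6 against 274.1, 411.3 and 610, with every treated aly array below even the untreated WT arrays (618.7, 653.1 and 644.9). It differed by -3.16 ± 0.37 (adjusted p = 0.00049), and by -2.88 ± 0.35 (adjusted p = 3e-04) without replicate 1. Cd200, which restrains myeloid cells through its receptor, read 3255.6, 1319.3 and 2757 against 450.3, 358.1 and 309.3 (-2.58 ± 0.44, adjusted p = 0.0051). Slamf1, a receptor that binds itself on neighbouring cells, read 1279.6, 1005.4 and 865.9 against 363.9, 61.4 and 145.7 (-2.65 ± 0.46, adjusted p = 0.0055). Cd40, the receptor of the injected antibody, depended on treated aly replicate 1. It read 9132.2, 6092.6 and 10196.6 in treated WT and 12520.2, 2923.9 and 2492.5 in treated aly. Replicate 1 was thus above all WT arrays and the other aly arrays below them. Cd40 was not called with all arrays (-0.88 ± 0.5, adjusted p = 0.31) and was called without replicate 1 (-1.61 ± 0.35, adjusted p = 0.012). Of 17 costimulation genes, 5 were called lower with all arrays and 8 without replicate 1, and 0 were higher (medians -0.88 and -1.27).

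For Cd70 and Tnfsf9, ligands of the TNF superfamily, replicate 1 also stood apart from the other treated aly arrays. Cd70, the ligand of CD27, read 459.1, 306.3 and 303.1 in treated WT and 307.7, 50.9 and 9.5 in treated aly, and Tnfsf9, the ligand of 4-1BB, read 384.9, 602 and 464.2 against 489.1, 142 and 105.7. In both, replicate 1 lay within the range of the WT arrays or above it, and replicates 2 and 3 lay far below. Neither was called with all arrays (-2.16 ± 0.67, adjusted p = 0.071, and -1.2 ± 0.48, adjusted p = 0.14), and both were called without that array (-3.15 ± 0.48, adjusted p = 0.0017, and -1.83 ± 0.37, adjusted p = 0.0084). Fas, the death receptor of the same superfamily, was low on all 3 treated aly arrays, at 83.3, 71.7 and 92.7 against 643.6, 657.4 and 1141 in treated WT, and differed by -3.03 ± 0.39 (adjusted p = 0.0011). Over 19 measured genes of the superfamily, Fas was the 1 call with all arrays, and 4 were called lower without replicate 1. Of all genes 2.64% and 2.98% were called lower.

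Genes of DC maturation formed the list with the most calls after the interferon genes, and also the longest list by measured genes. It repeats genes counted in other lists here, among them Cd80, Cd86, Cd274, Cd200, Relb, Il15, Stat4, Fas and Ccr7. Its calls are therefore not a separate result. Of 31 measured, 14 were called lower in treated aly with all arrays and 18 without replicate 1, with 0 higher in either (medians -1.45 and -1.50). Without treated WT replicate 3 the count was 8, without treated aly replicate 2 it was 10. Stat4, the transducer of IL-12 and interferon signals, read 2713.3, 2963 and 4288.6 in treated WT against 253.1, 272.1 and 206.1 in treated aly, and untreated WT stood at 139.8, 343.5 and 255.2. Its level in treated aly was thus within the range of untreated WT, 12.7-fold below treated WT (-3.66 ± 0.4, adjusted p = 4e-04, and -3.69 ± 0.42, adjusted p = 0.00024 without replicate 1). Irf4, which directs maturation and migration of CD11b positive DCs, read 1099.3, 1114.3 and 1494 against 129.9, 216.1 and 180.2, with the treated aly arrays below the untreated ones of their own genotype (291.6, 319.4 and 232.2). The difference of Irf4 was -2.72 ± 0.33 (adjusted p = 0.00069), and another probe set of the gene differed by only -0.12. Cd83, named after its values were seen, is a maturation marker that read 9083, 7879.6 and 10150.1 in treated WT and 5842.9, 4936.8 and 5285.6 in treated aly. Its groups did not overlap, but it passed in neither fit (-0.75 ± 0.34, adjusted p = 0.2 with all arrays). Icam1, an adhesion molecule also named after its values were seen, overlapped between the groups and was not called (-0.60 ± 0.42, adjusted p = 0.41).

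Of 13 measured chemokine receptors, 4 were called lower in treated aly and 0 higher, in both fits. Of all genes 2.64% and 2.98% were called lower. The list as a whole was not lower, with medians of 0.01 and, without replicate 1, 0.28. The 4 called are described here. Ccr7, which guides mature DCs to T cell zones, read 8069.7, 13305.2 and 12924.7 in treated WT and 5010.5, 2051.9 and 2941.2 in treated aly. Both genotypes stood far above their untreated levels (446.8, 361.9 and 405.9 in WT, 323.6, 260.9 and 241.6 in aly), with treatment responses of 4.74 ± 0.38 (adjusted p = 2e-06) in WT and 3.44 ± 0.38 (adjusted p = 0.00057) in aly. The treated genotypes still differed by -1.83 ± 0.38 (adjusted p = 0.014), and by -2.18 ± 0.35 (adjusted p = 0.0024) without replicate 1, with the call lost without treated WT replicate 3 or treated aly replicate 2 (adjusted p up to 0.1). Gpr183 (EBI2), an oxysterol receptor that positions splenic DCs, read 2131.2, 3299.3 and 4761.8 in treated WT and 305.5, 314.6 and 530.3 in treated aly. It was 8.37-fold lower (-3.06 ± 0.42, adjusted p = 0.0014), and lower also before treatment, by -1.52 ± 0.42 (adjusted p = 0.14), which did not pass. Ccrl2, a chemerin-binding receptor without classical signalling, read 1705.2, 1839.2 and 1700.7 against 371.7, 160.3 and 181.9 (-2.89 ± 0.38, adjusted p = 0.0012). Cxcr5, the receptor of CXCL13 in B cell follicles, read 459.6, 433.5 and 558.8 against 120, 88.8 and 102.5 (-2.06 ± 0.35, adjusted p = 0.005).

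Among 21 measured cytokine genes, 4 were called lower with all arrays and 6 lower and 1 higher without replicate 1. Of all genes 2.64% were called lower with all arrays, and 2.98% lower and 4.13% higher without replicate 1. The list median was -0.18, or -0.21 without replicate 1, and it turned to 0.14 when all probe sets of a gene were averaged. Il6 read 315.8, 440 and 301.1 in treated WT and 82.4, 28.2 and 26.4 in treated aly, all aly arrays lying below all WT arrays. It differed by -2.67 ± 0.39 (adjusted p = 0.0021), and by -3.07 ± 0.34 (adjusted p = 0.00024) without replicate 1. Il1rn, encoding the IL-1 receptor antagonist, read 4030.3, 2969.8 and 7926.1 against 367, 628.8 and 724.5, a difference of -3.01 ± 0.42 (adjusted p = 0.0015), though the aly arrays were far above their untreated 32.9, 46.6 and 70.5. Ifng, an effector cytokine of natural killer and T cells that DCs can also express, read 6301.7, 2232.6 and 640.9 in treated WT and 1285.5, 149.3 and 179.7 in treated aly. Replicate 1 lay within the WT range and the other aly arrays below it. Ifng was not called with all arrays (-2.6 ± 0.79, adjusted p = 0.066) and was called without replicate 1 (-3.55 ± 0.68, adjusted p = 0.0061). The mean log2 level of natural killer cell markers was 7.4, 7.11 and 6.13 on treated WT and 6.95, 5.92 and 6.68 on treated aly arrays. The part of such cells in the Ifng difference was not tested. Inhba, a subunit of activin A, was dim throughout (25.6, 35.9 and 31.9 against 5.5, 3.2 and 1.8), and its call of -1.27 ± 0.31 (adjusted p = 0.028) was lost without any single treated WT array or without treated aly replicate 2 (adjusted p up to 0.14). Tgfb1, an immunoregulatory cytokine, was the 1 higher gene, at 38.4, 69.6 and 49 against 53.9, 117.9 and 380 (1.78 ± 0.51, adjusted p = 0.044 without replicate 1, 1.20 ± 0.56, adjusted p = 0.21 with it). Il12b, the shared subunit of IL-12 and IL-23, did not separate: treated WT arrays read 169.6, 75.4 and 62.4 and treated aly arrays 80.3, 59 and 104, a difference of -0.21 ± 0.4 (adjusted p = 0.79) with another probe set at 0.57. Tnf and Il1b, both named after their values were seen, overlapped between the groups as well. Tnf read 250.9, 118.3 and 114.9 against 217.5, 195 and 111.4 (0.14 ± 0.46, adjusted p = 0.88), and Il1b read 1180.3, 1432.2 and 1440.9 against 626.4, 924.9 and 2131.1 (-0.32 ± 0.44, adjusted p = 0.7).

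Cxcl9, Cxcl10 and Cxcl11, the ligands of CXCR3 that attract activated T cells and natural killer cells, were the 3 called of 11 CXC chemokines in both fits, all lower in treated aly. Cxcl11 read 1472.8, 1395.8 and 1155.4 in treated WT and 102, 101.6 and 119.1 in treated aly, tight within both groups, and differed by -3.45 ± 0.39 (adjusted p = 0.00046). Cxcl10 read 7330.9, 5531.5 and 7926.3 against 2679.4, 1115.3 and 437.3, spread widely over the aly arrays, and differed by -2.62 ± 0.52 (adjusted p = 0.012), or -3.26 ± 0.43 (adjusted p = 0.00061) without replicate 1. Cxcl9 read 12789.9, 11486.1 and 12822.5 against 3865.6, 2043.5 and 4145.1 (-1.94 ± 0.47, adjusted p = 0.027). Without treated WT replicate 3 the calls of Cxcl10 and Cxcl9 were lost, and that of Cxcl9 also without treated WT replicate 1, treated WT replicate 2 or treated aly replicate 2 (adjusted p up to 0.087 and 0.13). Cxcl1, a neutrophil attractant, was not called (-1.09 ± 0.51, adjusted p = 0.22). Of 13 CC chemokines limma called 0 with all arrays, with 4 higher and 1 lower at an unadjusted p under 0.05 and a list median of 0.76, where 13% of all genes were higher and 9.87% lower at that threshold, and it called 1 in each direction without replicate 1, where the median was -0.10. The 1 that was lower was Ccl22, a ligand of CCR4, at 6907.9, 2740.9 and 7749 in treated WT and 2349.6, 2462.4 and 1172.4 in treated aly (-1.47 ± 0.45, adjusted p = 0.069, then -1.62 ± 0.47, adjusted p = 0.046). The 1 that was higher was Ccl6, at 104.8, 162.7 and 97.7 against 175.8, 1212.4 and 331.1 (2.28 ± 0.49, adjusted p = 0.011 without replicate 1). Ccl5, named after its values were seen, was high in both genotypes (11985.6, 14125.1 and 15129.3 against 14542.2, 5780.4 and 6646.1) and was not called (-0.73 ± 0.50, adjusted p = 0.4).

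Sequences before the start sites of several of these genes are shown because they hold the forms bound by the factors of these pathways. The RefSeq promoter table (GRCm38.p6) had an entry for 93 of the 130 named genes, and the 250 bases before each start were searched on both strands for the kappa B form GGGNNTTCC and its variant with another T, which can overlap each other, for the interferon response form (GAAA, any 2 bases, GAAA), and for the STAT form TTCNNNGAA. The 5 printed below, out of 10 that qualify, belong to listed genes called lower in both fits that have 1 promoter in the table and at least 1 kappa B or interferon response form, those with both kinds first and then by size of difference. They are written 5' to 3' on the strand of the gene, and capitals mark the kappa B and interferon response forms found. Their positions are chr5:92348890-92349139 (minus strand) for Cxcl10, chr5:30012864-30013113 (plus) for Il6, chr2:11642542-11642791 (plus) for Il2ra, chr3:142620413-142620662 (plus) for Gbp2 and chr16:10785537-10785786 (minus) for Socs1.
Cxcl10: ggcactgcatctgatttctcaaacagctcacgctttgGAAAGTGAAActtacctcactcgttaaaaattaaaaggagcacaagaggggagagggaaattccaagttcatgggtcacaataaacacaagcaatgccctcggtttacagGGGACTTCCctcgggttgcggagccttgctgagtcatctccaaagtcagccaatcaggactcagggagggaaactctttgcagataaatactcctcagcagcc
Il6: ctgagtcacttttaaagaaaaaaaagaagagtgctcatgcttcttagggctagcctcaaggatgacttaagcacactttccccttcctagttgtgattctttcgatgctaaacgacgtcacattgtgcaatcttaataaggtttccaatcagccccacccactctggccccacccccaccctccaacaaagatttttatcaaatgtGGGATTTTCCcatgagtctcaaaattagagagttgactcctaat
Il2ra: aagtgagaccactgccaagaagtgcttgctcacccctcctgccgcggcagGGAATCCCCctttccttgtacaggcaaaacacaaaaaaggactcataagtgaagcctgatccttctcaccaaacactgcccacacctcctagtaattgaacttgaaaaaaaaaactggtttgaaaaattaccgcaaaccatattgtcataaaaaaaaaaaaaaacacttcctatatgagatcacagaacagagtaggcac
Gbp2: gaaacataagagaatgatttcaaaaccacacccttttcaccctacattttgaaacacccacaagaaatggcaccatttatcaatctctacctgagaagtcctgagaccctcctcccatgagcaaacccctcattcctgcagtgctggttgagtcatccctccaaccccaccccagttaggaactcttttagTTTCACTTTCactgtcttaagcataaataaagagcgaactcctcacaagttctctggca
Socs1: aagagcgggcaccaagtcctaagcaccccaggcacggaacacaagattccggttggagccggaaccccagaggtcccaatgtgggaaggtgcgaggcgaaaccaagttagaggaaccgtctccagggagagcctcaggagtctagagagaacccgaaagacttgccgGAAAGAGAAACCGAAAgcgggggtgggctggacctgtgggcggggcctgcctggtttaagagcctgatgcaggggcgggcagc

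Cxcl10 held an interferon response form starting 213 bases and a kappa B form starting 103 bases before its start. The kappa B form of Il6 began 44 bases before the start, and that of Il2ra, on the opposite strand, at 200. Gbp2 had an interferon response form on the opposite strand at 59, and Socs1 had 2 overlapping ones at 83 and 77. A kappa B form of either kind stood in 44 of 449 promoters of the genes called lower in treated aly (9.8%), in 27 of 437 of those called higher (6.18%), in 7.14% of the promoters of all genes tested and in 5.99% of all promoters of the table. The interferon response form stood in 5.35%, 4.58%, 2.64% and 2.98% of the same sets, and the STAT form in 5.57%, 5.72%, 6.07% and 7.02%. Over the genes called lower and higher without treated aly replicate 1, the shares were 9.31% and 6.14% for the kappa B forms, 6.88% and 2.99% for the interferon response form and 6.48% and 4.94% for the STAT form. By form, GGGNNTTCC stood in 4.98% and its longer variant in 1.41% of all promoters of the table. Within the listed interferon-stimulated genes and interferon-inducible GTPases the shares ran the other way. The interferon response form stood in 5 of 20 promoters of those called lower (25%) and in 8 of 16 of those not called (50%). A kappa B form stood in 0 of 20 and in 2 of 16 (12.5%). The promoters printed were chosen for holding a form. These are counts of letters in 1 window, and a part of the forms in the differences was not tested.

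Interferon-stimulated genes, in 1 of the longest lists, gave the most lower calls of any list. Of 30 measured, 16 were called lower in treated aly with all arrays and 20 without replicate 1, with 0 higher (medians -1.66 and -1.97). The count was 3 without treated WT replicate 3 and 8 without treated aly replicate 2, with 0 higher. Mx1, an antiviral GTPase, read 1806.3, 3031.4 and 3564.7 in treated WT and 137.8, 173.1 and 481.3 in treated aly, within or near the untreated levels of 254.2, 212.9 and 512.6 in WT and 191.5, 122.3 and 279.5 in aly. It was 11.1-fold lower, at -3.48 ± 0.49 (adjusted p = 0.0017). Oasl1, a dim gene before treatment, read 3588.1, 4151.5 and 5045.2 in treated WT and 1787.1, 275.8 and 777.1 in treated aly, against 37.2, 41.8 and 47 in untreated WT and 94.7, 49.2 and 15.8 in untreated aly. It rose in both genotypes (6.19 ± 0.56, adjusted p = 4.5e-06 in WT and 3.61 ± 0.56, adjusted p = 0.0087 in aly), and the treated groups differed by -2.5 ± 0.56 (adjusted p = 0.018), and by -3.14 ± 0.48 (adjusted p = 0.0018) without replicate 1. Ifit2, which binds viral RNA, read 7765.4, 5624 and 8120.7 in treated WT and 5597.9, 567.1 and 1107.3 in treated aly. Replicate 1 was close to the lowest WT array and the others were nearer the untreated levels (521.8, 509 and 674 in WT, 410.1, 245.1 and 639.7 in aly), and the difference was -2.2 ± 0.61 (adjusted p = 0.048) with all arrays and -3.13 ± 0.41 (adjusted p = 0.00061) without. Irf7, the master factor of interferon alpha induction, read 7768.6, 6057.8 and 9216.9 against 1901.2, 1080.9 and 2127.2 (-2.2 ± 0.4, adjusted p = 0.0074). Ddx58, the RNA sensor RIG-I, differed by -2.08 ± 0.38 (adjusted p = 0.007), Cmpk2 by -2.33 ± 0.4 (adjusted p = 0.005) (with another of its probe sets at -0.01) and Parp14 by -2.2 ± 0.35 (adjusted p = 0.0039). Without treated WT replicate 3 the calls of Oasl1, Irf7, Ddx58 and Ifit2 were lost, Oasl1 also without treated aly replicate 2, and Ifit2 on leaving out any single array but treated aly replicate 1 (adjusted p up to 0.11, 0.068, 0.071 and 0.2).

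**Figure D3:**
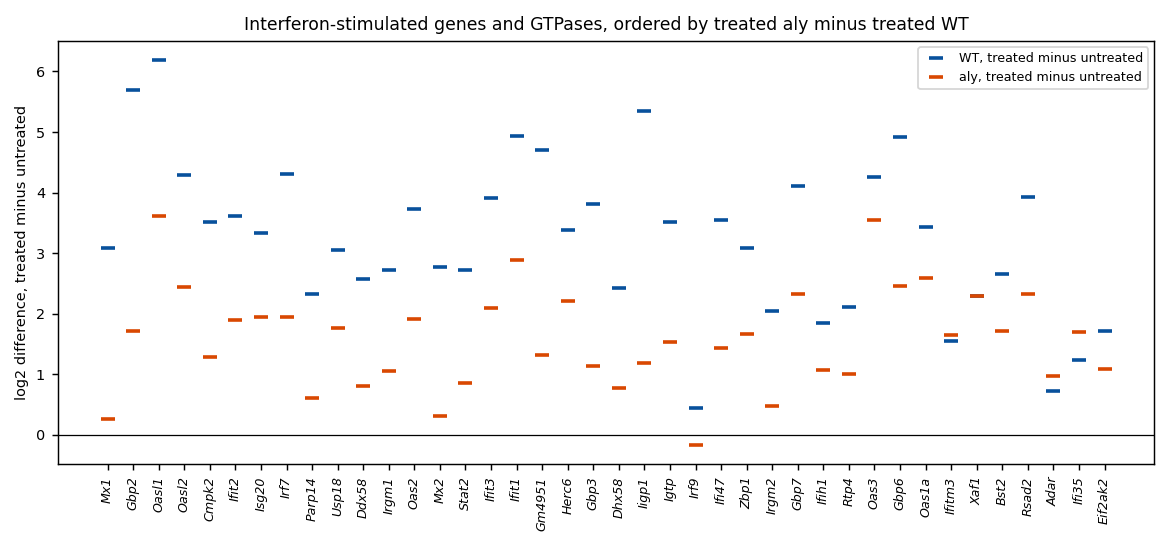
Log2 difference between treated and untreated arrays in WT (blue) and in aly (orange) for each measured interferon-stimulated gene and GTPase, ordered by the difference between the treated genotypes. The WT marks stand above the aly marks for most genes, with Iigp1 and Gbp2 among the widest gaps, and Ifitm3, Adar and Ifi35 are among those with the aly mark higher.

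The interferon-inducible GTPases, which attack vacuoles of intracellular microbes, were called lower for 5 of 10 with all arrays and 8 of 10 without replicate 1 (medians -1.55 and -1.97). The count was 2 without treated WT replicate 1, treated WT replicate 3 or treated aly replicate 2. Gbp2 read 11814, 11529.3 and 12587.7 in treated WT and 1955.3, 1373 and 2563.5 in treated aly. The aly arrays were above their untreated 527.1, 353.5 and 967.4 but 6.25-fold below treated WT (-2.64 ± 0.39, adjusted p = 0.0025), and another probe set differed by -0.53. Irgm1 read 1826, 2017.5 and 2400.2 against 517.5, 338.2 and 627.9 (-2.07 ± 0.35, adjusted p = 0.0051). Gbp3, Igtp and Ifi47 were also lower, by -1.64 ± 0.41 (adjusted p = 0.029), -1.54 ± 0.4 (adjusted p = 0.038) and -1.45 ± 0.38 (adjusted p = 0.035). These 3 calls were lost without treated WT replicate 1, treated WT replicate 3 or treated aly replicate 2, those of Igtp and Ifi47 without several untreated arrays too, and adjusted p reached 0.14, 0.17 and 0.18. Gbp7 read 3676.8, 2596.6 and 4816.1 in treated WT and 5570.2, 863 and 758.1 in treated aly, where replicate 1 exceeded every WT array, and was called without it (-2.13 ± 0.37, adjusted p = 0.0039) but not with it (adjusted p = 0.23). Among 14 IRF and STAT factors, 7 were called lower with all arrays, 6 without treated aly replicate 1, 2 without treated WT replicate 3 and 3 without treated aly replicate 2. Stat2, a transcription factor of type I interferon signalling, was 1 of them at 900, 696.6 and 1031.2 against 440.9, 137.6 and 185.9 (-1.86 ± 0.45, adjusted p = 0.025), lost without treated WT replicate 1, treated WT replicate 3 or treated aly replicate 2 (adjusted p up to 0.14).

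Feedback inhibitors of the same pathways were called lower for 4 of 20 measured genes with all arrays and 5 without replicate 1. Of all genes 2.64% and 2.98% were called lower. Socs1, the inhibitor of JAK kinases, read 139.7, 90.6 and 81.6 in treated WT and 10.1, 25.4 and 3.2 in treated aly, where it stayed dim (-2.1 ± 0.36, adjusted p = 0.0053). Socs2 read 4091.5, 3913.1 and 3831.6 against 3687.8, 1046.9 and 756, with replicate 1 close to WT, and was called without it (-2.13 ± 0.39, adjusted p = 0.0044) but not with it (adjusted p = 0.1), while its other probe sets ranged from -3.22 to 0.69. Dusp1 and Dusp2, phosphatases that switch off MAP kinases, differed by -1.47 ± 0.37 (adjusted p = 0.031) and -1.49 ± 0.36 (adjusted p = 0.027), calls lost without treated WT replicate 3 or treated aly replicate 2, and for Dusp1 without WT untreated replicate 3 and either other treated WT array too (adjusted p up to 0.17 and 0.18). In the list of survival and death genes, 4 of 20 were lower and 1, the pro-apoptotic Bik, was higher with all arrays (1.97 ± 0.43, adjusted p = 0.017, lost without treated WT replicate 1 or treated WT replicate 3, adjusted p up to 0.089). Of all genes 2.64% were lower and 2.74% higher. Casp4, the sensor of intracellular LPS, read 2495.3, 3543.5 and 3288.1 against 433.5, 258.9 and 974.5 (-2.64 ± 0.45, adjusted p = 0.005). Casp8 and its inhibitor Cflar differed by -2.31 ± 0.47 (adjusted p = 0.013) and -2.32 ± 0.48 (adjusted p = 0.013), both lost without treated WT replicate 3 (adjusted p up to 0.087 and 0.1).

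In antigen presentation, 2 of 15 measured MHC class I genes were called lower in both fits and 0 higher, where 2.64% and 2.98% of all genes were called lower. Nlrc5, the transactivator of class I genes, read 3948.1, 2698 and 5515.5 in treated WT and 1106.6, 936.7 and 1817.3 in treated aly (-1.64 ± 0.4, adjusted p = 0.026), and Tapbpl, a peptide editor, read 1912.1, 1671.5 and 1763.5 against 595.3, 725.5 and 464.2 (-1.58 ± 0.35, adjusted p = 0.018). Both calls were lost without treated WT replicate 1 or treated WT replicate 3, and that of Nlrc5 without treated aly replicate 2 (adjusted p up to 0.17 and 0.1). Tap1, the peptide transporter, and B2m, the class I light chain, were not called (-0.65 ± 0.44, adjusted p = 0.39, and -1.19 ± 0.42, adjusted p = 0.11). For MHC class II, Ifi30, a lysosomal thiol reductase, was the 1 call of 13 with all arrays (-1.35 ± 0.35, adjusted p = 0.039) and passed no longer without replicate 1 (-1.07 ± 0.33, adjusted p = 0.061) nor without 8 other single arrays (adjusted p up to 0.18). The chains themselves were bright in both genotypes. H2-Ab1 read 6912, 11966.9 and 7428.9 in treated WT and 19886.7, 12408.2 and 10888.8 in treated aly, with overlap and no call (0.71 ± 0.36, adjusted p = 0.26). H2-Aa read 11744.3, 9370.5 and 14779.3 against 48745, 13935.4 and 13122.3 and was not called (0.82 ± 0.45, adjusted p = 0.29, 0.2 without replicate 1), and some other probe sets of both genes differed in the opposite direction.

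The glycolysis, cholesterol synthesis, cytoskeleton and mediator lists held 1 to 3 calls each with all arrays. All were in the lower direction, in which 2.64% of all genes were called. The lists as a whole did not all lie lower. Their medians were 0.51, -0.22, 0.13 and 0.07 in that order, against 0.188 over all genes. Without replicate 1 they were 0.5, -0.24, -0.19 and -0.49, against 0.119. Pfkfb3, which raises glycolytic flux, was the 1 call of 15 glycolysis genes, at 4481.7, 3846.6 and 4976.4 in treated WT against 426.8, 1320.9 and 1654.6 in treated aly (-2.15 ± 0.44, adjusted p = 0.013). Idi1 and Fdps, enzymes of the isoprenoid steps of cholesterol synthesis, were the 2 lower of 16, by -2.34 ± 0.4 (adjusted p = 0.005) and -1.51 ± 0.37 (adjusted p = 0.027). Itga4, an integrin chain, and Cdc42ep3, an effector of CDC42, were the 2 lower of 24 cytoskeleton and adhesion genes (-2.35 ± 0.44, adjusted p = 0.0082, and -1.89 ± 0.37, adjusted p = 0.012). Without treated WT replicate 3 the calls of Pfkfb3, Fdps, Itga4 and Cdc42ep3 were lost, and that of Fdps also without treated WT replicate 2 or treated aly replicate 2 (adjusted p up to 0.094, 0.16, 0.08 and 0.098). Vim, the intermediate filament vimentin, read 4680.5, 3260.1 and 2150.7 in treated WT and 8013, 409.8 and 744.8 in treated aly, with replicate 1 above every WT array and the others below, and was called without replicate 1 (-2.5 ± 0.4, adjusted p = 0.0024) but not with it (adjusted p = 0.34). Of 18 genes for lipid and metabolite mediators 3 were lower with all arrays and 5 without replicate 1. Sphk1, which makes sphingosine 1-phosphate, read 3107.3, 1107 and 1424.7 against 586, 409.7 and 344.7 (-1.92 ± 0.45, adjusted p = 0.023), and Ptgs2, the inducible cyclooxygenase, 853.8, 1028.1 and 384.5 against 211.8, 223.9 and 237.6 (-1.57 ± 0.4, adjusted p = 0.034). Both calls were lost without treated WT replicate 1 or treated aly replicate 2, Sphk1 also without treated WT replicate 3 and Ptgs2 without treated WT replicate 2 (adjusted p up to 0.1 and 0.12). Ido1, which degrades tryptophan, and Arg2, which degrades arginine, were called without replicate 1 (-1.56 ± 0.45, adjusted p = 0.045, and -1.94 ± 0.42, adjusted p = 0.011) but not with all arrays (-1.46 ± 0.43, adjusted p = 0.06, and -1.47 ± 0.46, adjusted p = 0.075).

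**Figure D4:**
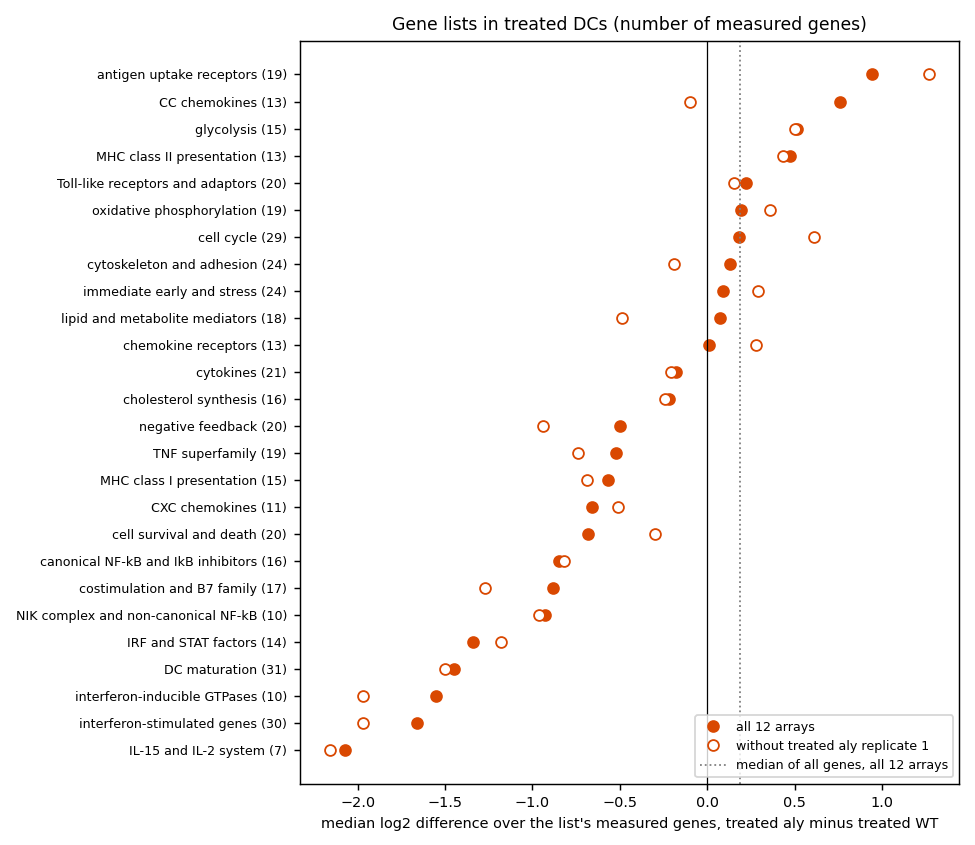
Median log2 difference, treated aly minus treated WT, over the measured genes of each of 26 pathway lists (number in brackets), with all 12 arrays (filled) and without treated aly replicate 1 (open). The dotted line is the median of all genes, 0.188. The IL-15 and IL-2, interferon and DC maturation lists lie farthest to the left, and antigen uptake receptors farthest to the right.

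The median difference was below 0 in 15 of the 26 pathway lists with all arrays and in 18 without replicate 1, against medians of 0.188 and 0.119 over all genes. Of the 39 pathway and marker lists, 26 kept the sign of their median under every alternative. Centring each array on its median turned those of the chemokine receptors, Toll-like receptors, cytoskeleton, mediators, oxidative phosphorylation, cell cycle, immediate early, pan-DC and plasmacytoid DC lists from above to below 0. For the lists of the NIK complex, canonical NF-kB, costimulation, maturation, interferon-stimulated genes, GTPases, IRF and STAT factors, IL-15 and IL-2, and the TNF superfamily, 0 genes were higher in treated aly with all arrays even at an unadjusted limma p under 0.05, where 13% of all genes were.

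Outside these lists, several of the strongest losses in treated aly fell on genes of varied function. Vsig10, a membrane protein of the immunoglobulin family, read 613, 493.9 and 1163.4 in treated WT and 2.7, 33.7 and 26.1 in treated aly, where untreated arrays read 68.8, 59.7 and 73.6 in WT and 56.1, 33.6 and 61.9 in aly. All treated aly arrays were below the untreated WT arrays, and the difference was -4.41 ± 0.43 (adjusted p = 0.00027), and -3.98 ± 0.38 (adjusted p = 0.00016) without replicate 1. Replicates 2 and 3 of treated aly read near the median intensity of their arrays (23.3 and 26.7), and replicate 1 read far below its own (53.4). The size of the difference thus depends on the offset. It was -5.54 with an offset of 1 and -3.21 with an offset of 64. Agrn, encoding the matrix proteoglycan agrin, read 2146.2, 1558.2 and 3044.7 against 12.9, 185.9 and 203 (-4.33 ± 0.59, adjusted p = 0.0014, and -3.38 ± 0.36, adjusted p = 0.00021 without replicate 1). Prnp, encoding the prion protein, read 3769, 4846.4 and 5951.9 in treated WT and 323, 581.2 and 493.3 in treated aly. Its untreated levels ran the other way, 491.6, 290 and 248.9 in WT and 1081.2, 760.3 and 1456.9 in aly, and the treated difference was -3.35 ± 0.39 (adjusted p = 0.00049). Pla1a, a phospholipase that acts on phosphatidylserine, read 4427.2, 1307.5 and 2680.9 against 412.6, 160 and 153.8 (-3.42 ± 0.49, adjusted p = 0.002). Tmem39a and Vwa5a differed by -3.86 ± 0.59 (adjusted p = 0.003) and -3.63 ± 0.58 (adjusted p = 0.0039) with all arrays, and by -2.93 and -2.78 without replicate 1, their lowest aly array. Another probe set of Vwa5a differed by -0.08. Ifit1bl1, of the IFIT family, and Plk2, a polo-like kinase, entered the 10 largest falls only without replicate 1 (-3.35 ± 0.5, adjusted p = 0.0016, and -3.26 ± 0.51, adjusted p = 0.0019). The Plk2 call was lost without treated WT replicate 3 (adjusted p up to 0.098), and its other probe set was higher in aly by 0.93.

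Spib, Prdm1 and Tcf4, transcription factors in marker lists of other cells, were lower. Each was the 1 gene called lower in its list with all arrays. Spib, found in B cells and plasmacytoid DCs, read 1705.2, 1946.9 and 3071.6 in treated WT and 386.7, 295.3 and 451.1 in treated aly (-2.49 ± 0.4, adjusted p = 0.0039), and Prdm1, the repressor Blimp-1 of plasma cells and some DCs, 395.7, 522.8 and 682.4 against 8.5, 84.7 and 106.3 (-3 ± 0.52, adjusted p = 0.0055). They stood among 13 B cell markers (median -0.08) and 7 plasma cell markers, whose median was above 0 (0.74, and 0.17 without replicate 1). The Prdm1 difference was -2.27 ± 0.39 (adjusted p = 0.0032) without replicate 1. Tcf4, the factor of plasmacytoid DCs, stood among 10 markers with a median of 0.27 (-1.45 ± 0.32, adjusted p = 0.019). Calls of Prdm1 and Tcf4 were lost without treated WT replicate 3, and of Tcf4 without treated WT replicate 1 or treated aly replicate 2 (adjusted p up to 0.054 and 0.093). Esam, an adhesion molecule of the CD11b positive subset, was 1 of 2 lower genes among 15 markers of that subset, where 1 was higher with all arrays and 2 without replicate 1 (medians 0.40 and 0.22), at 559.5, 591.3 and 1172.7 against 138.4, 239.5 and 211.2 (-1.84 ± 0.38, adjusted p = 0.013). The Esam call was lost without treated WT replicate 3 (adjusted p up to 0.11). Irf4 was the other lower gene.

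Genes higher in treated aly were led by transcripts of macrophages and red cells. In bulk samples a change in the number of such cells and a change of RNA per cell cannot be told apart. Of 17 measured red pulp macrophage markers, 5 were called higher with all arrays and 6 without replicate 1, with 0 lower, and the median was 1.98 and 2.45. The count was 9 without treated WT replicate 1, 2 without treated WT replicate 2, 0 without treated WT replicate 3 and 1 without treated aly replicate 2. Their summed intensity was 35420 to 62730 on treated aly arrays against 2928 to 18400 on treated WT arrays, and it was 47110 to 78480 in untreated aly against 4658 to 21370 in untreated WT. A sum is weighted to the brightest markers. Their mean log2 level was 9.52, 10.52 and 10.19 on treated aly and 9.18, 7.93 and 6.87 on treated WT arrays. The median difference over the list was only 0.54 between the replicate 1 arrays, and 2.7 between replicates 2 and 3. Hmox1, which breaks down haem, read 107.6, 93.2 and 23.7 in treated WT and 641.6, 2537.7 and 1272 in treated aly (3.99 ± 0.77, adjusted p = 0.0097). The part of such cells in the other differences was not tested. Slc40a1, the iron exporter ferroportin, read 136.7, 478.8 and 18.2 against 281.1, 10557.7 and 7605.1. Its replicate 1 fell within the WT range, and the difference grew from 4.39 ± 1.17 (adjusted p = 0.04) to 6.03 ± 0.9 (adjusted p = 0.0016) without it. Cd5l, a secreted macrophage protein, read 1853.7, 265.8 and 139.2 against 8006.6, 6476.1 and 4128.5 (3.79 ± 0.92, adjusted p = 0.027), and C1qb, a chain of complement C1q, 2943, 558.5 and 191.9 against 34712.4, 6433.4 and 4995.7 (3.88 ± 0.99, adjusted p = 0.033), a call lost without replicate 1 (3.01 ± 0.97, adjusted p = 0.074). Cd163, the haemoglobin receptor, was dim in treated WT (8.1, 1.8 and 2.8) and read 130.7, 796.4 and 138.7 in treated aly, below untreated aly (1186.1, 1193.2 and 838.9).

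Further genes of this direction included Lpl (lipoprotein lipase, 3.56 ± 0.78, adjusted p = 0.017), Maf (a macrophage transcription factor, 3.37 ± 0.9, adjusted p = 0.042), Aif1 (3.74 ± 0.59, adjusted p = 0.0039, 3.09 without replicate 1), Prxl2b (3.35 ± 0.59, adjusted p = 0.0057), Itsn1 (3.25 ± 0.73, adjusted p = 0.019), Slc43a2 (2.96 ± 0.82, adjusted p = 0.048, 3.89 without replicate 1) and the receptor Csf1r, whose treated levels were 4259.2, 3457.9 and 465.3 in WT and 14031, 10216.7 and 9273.3 in aly (2.52 ± 0.63, adjusted p = 0.03). Slc45a3 was called without replicate 1 (3.72 ± 0.72, adjusted p = 0.0065) but not with all arrays (2.66 ± 0.85, adjusted p = 0.078). Of 12 erythroid markers 2, Slc4a1 and Rhag, were called higher with all arrays and 1 without replicate 1. Of all genes 2.74% and 4.13% were called higher. Summed intensities of the erythroid markers were 2359 to 5626 on treated aly and 1130 to 1370 on treated WT arrays. Slc4a1, the anion exchanger of red cells, read 89.2, 30.9 and 6.4 against 1068, 1645.5 and 246.3 (4.02 ± 0.71, adjusted p = 0.0058), Rhag, a Rh-associated glycoprotein, 5.3, 5.2 and 16.7 against 107.3, 97.4 and 21.9 (1.72 ± 0.46, adjusted p = 0.042, 1.42 without replicate 1, lost in 10 of 12 single-array omissions, adjusted p up to 0.12), and the uncalled Alas2, the haem synthesis enzyme of red cells, 232.9, 67.2 and 2.6 against 589.9, 1173.5 and 204.7 (2.9 ± 0.83, adjusted p = 0.052). Stab2, a scavenger receptor of sinusoidal endothelium, was 1 of 2 higher genes in the stromal list (2.85 ± 0.56, adjusted p = 0.011). Among 19 antigen uptake receptors 1 was higher with all arrays and 5 without replicate 1, beside the same shares of all genes (2.74% and 4.13%). That list shares Mrc1, Mertk, Fcgr1 and Axl with the red pulp macrophage list. Msr1 was the call with all arrays (2.27 ± 0.55, adjusted p = 0.027), while Mrc1 and Clec4a2 were among those without replicate 1 (3.13 ± 0.84, adjusted p = 0.034, and 2.82 ± 0.52, adjusted p = 0.0046) and Marco passed in neither (3.09 ± 0.98, adjusted p = 0.077, 2.27 without replicate 1). Without treated WT replicate 3, which had the lowest macrophage markers of the treated WT arrays, the calls of Hmox1, Slc40a1, Cd5l, C1qb, Cd163, Lpl, Maf, Prxl2b, Itsn1, Slc43a2, Csf1r, Slc4a1, Stab2 and Msr1 were lost, with adjusted p up to 0.2 for C1qb and 0.24 for Slc43a2 over the single-array omissions. Without treated aly replicate 2, those of Slc40a1, Cd5l, C1qb, Lpl, Maf, Itsn1, Slc43a2, Csf1r and Msr1 were lost. Slc40a1 and Slc43a2 each lost the call in 9 of 12 single-array omissions and Maf in 8, those of untreated arrays among them. Vat1 and Slc4a1 stand, like Stat5a, among the 100 measured genes nearest to Map3k14, of which 4% were called with all arrays and 5% without replicate 1, against 5.37% and 7.11% of all genes. For these genes an effect of DNA inherited with the mutation and an effect of the mutation cannot be told apart. Vat1 read 111.6, 13.5 and 11.3 in treated WT and 1876.8, 505.1 and 241 in treated aly (3.76 ± 0.7, adjusted p = 0.0082, 2.97 without replicate 1, lost without treated WT replicate 3).

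The treated and the untreated comparison of the genotypes use different arrays. Of the 411 genes higher in treated aly, 41 were also called higher in untreated aly (9.98% of the treated list and 54.7% of the 75 untreated calls, themselves 0.499% of genes tested). Without treated aly replicate 1 the shared number was 128 (20.6%, and 44.4% of 288 untreated calls). Of the 396 lower genes, 1 was also lower in untreated aly (0.253% of the list, and 12.5% of the 8 untreated calls, which are 0.0533% of genes tested), and 11 without replicate 1 (2.46%, and 10.2% of 108). Both take the spread of each gene from the same fit. In limma's interaction test the treated genotype difference was below the untreated one for 23 genes (0.153%) and above it for 0, with 1204 genes in either direction at an unadjusted p under 0.05, and without replicate 1 the numbers were 96 (0.639%) and 17 (0.113%).

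**Figure D5:**
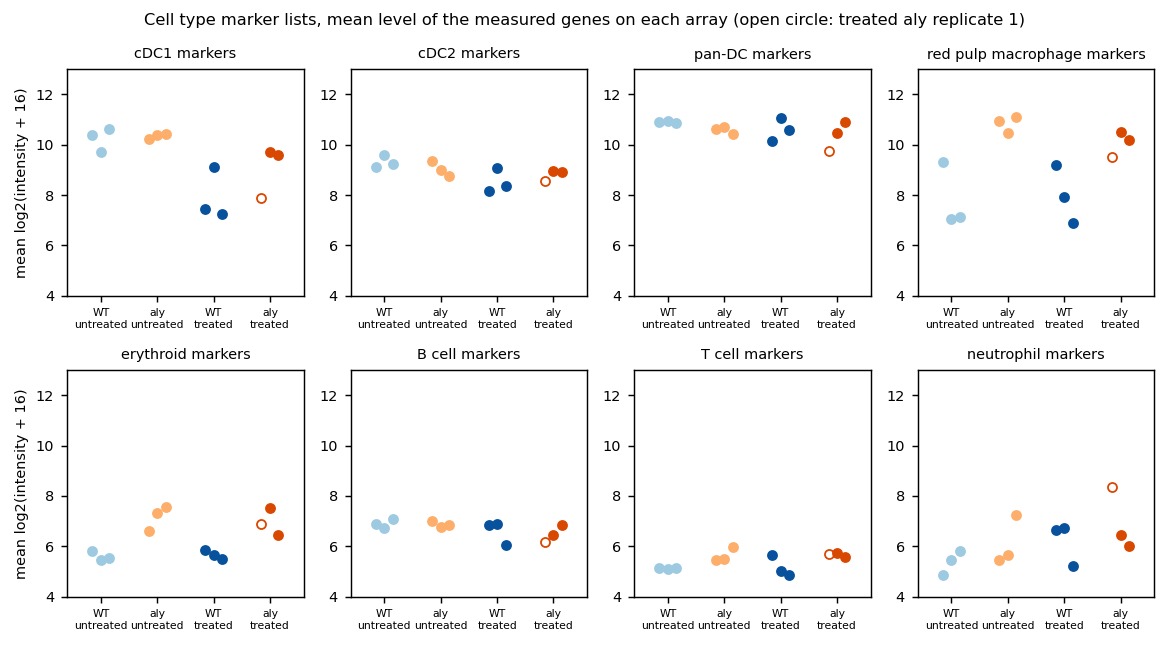
Mean log2(intensity + 16) over the measured genes of 8 cell type marker lists on each of the 12 arrays, with treated aly replicate 1 as an open circle. Red pulp macrophage and erythroid markers are high in both aly groups, cDC1 markers lie lower on the treated than on the untreated arrays of each genotype and lower in treated WT than on treated aly replicates 2 and 3, and neutrophil markers are highest on treated aly replicate 1.

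The sorted cells carried DC transcripts in all groups: the mean level of 13 pan-DC markers was 10.16 to 11.06 on treated WT and 9.76 to 10.89 on treated aly arrays. Markers of the CD8 alpha positive subset (cDC1), which takes up dying cells and cross-presents, were called lower after treatment for 12 of 16 in WT, with 1 higher, and for 0 of 16 in aly in either direction, in both fits. At an unadjusted limma p under 0.05, 8 of the 16 were lower and 1 higher after treatment in aly with all arrays, against 7.32% and 5.56% of all genes. Their summed intensity was 22910 to 39350 in untreated WT and 34570 to 38160 in untreated aly, and 6620 to 13680 in treated WT against 7763 to 24280 in treated aly. With all arrays 1 of 16 was called higher in treated aly, and without replicate 1 the number was 7 (medians 1.02 and 1.66). It was 3 without treated WT replicate 2, and 0 without treated WT replicate 3 or treated aly replicate 2. Cadm1, an adhesion molecule of this subset, read 437.5, 460.5 and 61 in treated WT and 919.2, 2170.5 and 1213.1 in treated aly (2.41 ± 0.6, adjusted p = 0.028, lost without treated WT replicate 3 or treated aly replicate 2, adjusted p up to 0.16). Naaa, a lysosomal amidase, showed the split within both groups: it read 122.7, 1860.7 and 136.6 in treated WT and 126.7, 4191.2 and 3285.6 in treated aly, so treated WT replicate 2 was high and treated aly replicate 1 low. It was called without replicate 1 (3.45 ± 0.75, adjusted p = 0.012) but not with all arrays (1.88 ± 1.05, adjusted p = 0.3). Itgae (the integrin CD103), Tlr3 (the sensor of double-stranded RNA) and Gcsam also passed without that array (3.26 ± 0.64, adjusted p = 0.0073, 2.53 ± 0.55, adjusted p = 0.012, and 2.83 ± 0.57, adjusted p = 0.008) but not with it (adjusted p = 0.05, 0.091 and 0.15). Tlr4, the LPS receptor, was dim in both groups (41, 30.6 and 7.7 and 9.1, 150.1 and 153.2), and was with Tlr3 the second of 2 genes of the TLR list called without replicate 1 (2.08 ± 0.47, adjusted p = 0.015). Cd8a, named after its values were seen, read 262.4, 474.3 and 275.8 against 170.6, 865.8 and 612.1 and was not called (0.46 ± 0.50, adjusted p = 0.61, 1.12 without replicate 1, adjusted p = 0.089).

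Of 29 cell cycle genes, 2 were called higher in treated aly with all arrays and 5 without replicate 1, where 2.74% and 4.13% of all genes were. The list medians were 0.18 and 0.61, against 0.188 and 0.119 over all genes. Mcm5, of the replicative helicase, read 710.3, 1036.3 and 598.2 in treated WT and 2163.2, 2509.1 and 1679.5 in treated aly (1.44 ± 0.39, adjusted p = 0.045), and Birc5, the mitotic protein survivin, 158.5, 182 and 201.2 against 456.7, 658.2 and 442.4 (1.43 ± 0.34, adjusted p = 0.026). The treated aly arrays were close to the untreated ones of aly (2320.3, 2435.7 and 1142.8 for Mcm5 and 612.3, 712.1 and 452.3 for Birc5). Mcm4, Rrm2 (the regulated subunit of ribonucleotide reductase) and Cdc20 (an activator of the anaphase-promoting complex) were called without replicate 1 (1.75 ± 0.36, adjusted p = 0.0096, 1.72 ± 0.38, adjusted p = 0.014, and 1.86 ± 0.39, adjusted p = 0.01) but not with it (adjusted p = 0.25, 0.15 and 0.12). Other probe sets of Mcm5, Mcm4 and Rrm2 did not share the direction in every case. Without any single treated WT array or treated aly replicate 2 the calls of Mcm5 and Birc5 were lost, and that of Mcm5 without most untreated arrays (adjusted p up to 0.22 and 0.11). Among immediate early genes 2 of 24 were called higher and 1 lower with all arrays, where 2.74% and 2.64% of all genes were. Egr1 read 224.1, 487.2 and 73.4 in treated WT and 489.9, 1450.2 and 863.5 in treated aly (1.97 ± 0.53, adjusted p = 0.042), and Jun ran the other way at 633.2, 1088.4 and 1127.7 against 271.6, 290.5 and 195.5 (-1.82 ± 0.41, adjusted p = 0.019). Egr1 lost its call in 9 of 12 single-array omissions and Jun without treated WT replicate 2 or 3 (adjusted p up to 0.23 and 0.12). Ndufb5, of respiratory complex I, was the 1 higher gene among 19 of oxidative phosphorylation (1.66 ± 0.4, adjusted p = 0.025, lost without treated WT replicate 1, treated WT replicate 3 or treated aly replicate 2, adjusted p up to 0.16).

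The activated states can also be set against the untreated cells of each genotype, although the responses share the treated arrays with the comparison above and are given side by side only. After treatment 744 genes (4.95%) were called higher in WT and 68 (0.453%) in aly, and 714 (4.75%) lower in WT and 5 (0.0333%) in aly. The gap was smaller at an unadjusted limma p under 0.05. There 9.53% of all genes were higher in WT and 5.56% in aly, and 13.5% and 7.32% were lower. Leaving out treated aly replicate 1 gave 1172 higher (7.8%) and 1671 lower (11.1%) in WT, and 55 higher (0.366%) and 0 lower in aly. In that fit aly had fewer treated arrays than WT. The unadjusted shares were 11.7% higher and 18.8% lower in WT, and 3.8% and 4.22% in aly. Higher genes thus made up 51% of the WT calls with all arrays and 41.2% without that array. The WT count was 492 without untreated WT replicate 1, 439 without untreated WT replicate 3, 460 without treated WT replicate 1 and 427 without treated WT replicate 3. The aly count was 38 without untreated WT replicate 1, 41 without untreated WT replicate 3, 19 without untreated aly replicate 1 or replicate 2, and 13 without untreated aly replicate 3. In WT 25 of 31 maturation genes were called higher and the list median was 2.71, and in aly 7 were called and the median was 1.00. Of 30 interferon-stimulated genes 25 were called higher in WT (median 3.07) and 6 in aly (median 1.70), and of 10 GTPases 10 in WT (median 3.97) and 0 in aly (median 1.38), where limma gave 8 of the 10 higher at an unadjusted p under 0.05, against 5.56% of all genes. For costimulation the counts were 12 of 17 and 0 of 17 (medians 1.92 and 1.00), with 8 higher in aly at an unadjusted p under 0.05, and for the IL-15 and IL-2 list 5 of 7 and 1 of 7 (medians 3.28 and 1.01). The cDC1 markers changed by a median of -2.96 in WT and -1.45 in aly, and cell cycle genes by -1.24 and -0.57. Without treated aly replicate 1, aly counts were 4 for maturation (median 1.14) and 4 for interferon-stimulated genes (1.22). The aly medians were 1.16 for the GTPases, 0.50 for costimulation, 1.03 for the IL-15 and IL-2 list, -0.83 for cDC1 markers and -0.34 for cell cycle genes. The response medians of aly thus had the sign of those of WT in each of these lists, at smaller size, in both fits.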

How the data were processed

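Splenic DC RNA of 12 arrays was hybridised, per the labels. The deposited value table holds array intensity on a linear scale for 45101 probe sets, each array with a trimmed mean of 150.001. Which software made them, with what background correction, is not given in the sources used here. Nothing was rescaled. Intensities were transformed to log2(intensity + 16). GEO's platform annotation gave 34958 probe sets 1 gene symbol, 932 several and 9211 none, and only the first kind was used. A probe set had to exceed the 40th percentile of its array on at least 3 arrays, and the brightest such probe set on average stood for its gene, giving 15019 genes.

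A mean for each of 4 groups was fitted with limma 3.58.1 (R 4.3.3), with moderated tests and Benjamini-Hochberg adjustment over all 15019 genes. The fit without treated aly replicate 1 used the same genes on 11 arrays. The fitting steps were tested on simulated data. The number of arrays limits the precision. The p-values set each group difference against the spread between arrays within the 4 groups. That spread holds differences between pools of mice and differences in array quality together.

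The comparison, the 39 gene lists and their 633 distinct genes were chosen with earlier results of these data known. Genes named are the 10 largest rises and falls among called, non-overlapping genes of at least 1 on the log2 scale in each fit, up to 4 genes of smallest p in each list and fit, and a few fixed names. Cd83, Icam1, Tnf, Il1b, Ccl5 and Cd8a were chosen after their values were seen. Promoters are from RefSeq (GRCm38.p6). Figures were drawn with matplotlib 3.10.9 in Python 3.11.15. Alternatives were other normalizations, offsets, filters, probe set rules, array subsets, array weights, a replicate block and single-array omissions.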

Additional observations from a re-analysis of the deposited data

Results flagged for a closer look

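For 12 of the 130 named genes the genotype difference in treated DCs differed from that in untreated DCs, by limma's interaction test with Benjamini-Hochberg adjustment over all genes (3 arrays in each of 4 groups). All 12 interaction values were negative, and so were all 23 calls among the 15019 genes tested (0.153%). Most named genes were picked by the size or p of the treated difference, which is a part of the interaction. The count of 12 thus partly follows from that choice. Prnp had the largest, at -5 ± 0.55 (adjusted p = 0.0017), with a genotype difference of -3.35 in treated and 1.64 in untreated DCs. Ccl22 followed at -4.34 (adjusted p = 0.011), with -1.47 in treated and 2.87 in untreated cells, and Gbp2 stood at -3.96 (adjusted p = 0.01), with -2.64 and 1.32. In these 3 genes the aly mean was below that of WT after treatment and above it before. The treated difference of Ccl22 did not pass limma's test (adjusted p = 0.069), nor did the untreated difference of Gbp2. The value was -4.06 for Vsig10 (adjusted p = 0.011), -3.61 for Il15 (adjusted p = 0.01) and -3.53 for Cxcl11 (adjusted p = 0.017), whose untreated differences were -0.35, 0.36 and 0.08. It was -4.01 for Il15ra, -3.92 for Prdm1 and -3.82 for Pla1a (adjusted p = 0.046 for each). It was -3.23 for Il2ra (adjusted p = 0.036), and -2.96 for both Cd80 and Fas (adjusted p = 0.046 for each). The number of named genes with such a difference was 34 without treated aly replicate 1 and 1 without untreated WT replicate 2.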

How the results depend on the processing

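Of the 130 named genes, 90 were called between treated aly and treated WT DCs, and these 90 had the same direction under every alternative run. Of these calls 75 were lost with only the treated arrays in the fit, 44 with an offset of 1, 56 without treated WT replicate 3, 36 without treated aly replicate 2 and 3 without treated aly replicate 1, which added 24 of the other 40. Against 807, the number of called genes was 507 with median centring, 229 with an offset of 1, 27 with only the treated arrays and 2886 with array weights, and it ran from 81 to 1544 over single-array omissions. Without treated aly replicate 1, against 1068, it was 179 with an offset of 1 and 686 with only the treated arrays, and ran from 38 to 1243. With the replicate number as a block it was 1108 and 1329. Same-numbered treated arrays of both genotypes correlated at 0.233, 0.095 and 0.089 in their deviations from group means, and treated WT replicate 2 correlated best with treated aly replicate 3 (0.227). The labels do not say that the numbers pair the arrays, and the main fit did not pair them. Poly-A controls averaged 4.292 and 9.517 on replicate 1 of untreated WT and aly, and 4.45 and 19.77 on replicate 1 of treated WT and aly. On all other arrays they averaged 50.74 to 460.2. Replicate 1 of every group was thus set apart, and the part of this in the differences was not tested. The 12 interaction calls became 6 with median centring or quantile normalization, 1 with an offset of 1, 20 with an offset of 64, 7 with no filter, 64 with array weights and 2 with replicates 2 and 3 only, and ran from 1 to 34 over omissions. Genes higher after treatment in WT (744) numbered 1350 with array weights and 427 to 1172 over omissions. Those in aly (68) numbered 45 with median centring, 11 with an offset of 1, 140 with array weights, 28 with replicates 2 and 3 only and 13 to 80 over omissions. The causes of these changes were not tested. The uncalled genes that changed sign were Tnf (-0.21 with median centring, and -0.04 to 0.48 over omissions), Il12b (0.18 with the mean of probe sets, 0.16 with replicates 2 and 3 only, and -0.45 to 0.17 over omissions) and Il1b (-0.81 to 0.06 over omissions). Dim genes such as Inhba and Socs1, near background on aly arrays, are limited by signal, and their size depends on the offset.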
